A study of Homo sapiens with 6 samples.

Results

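To examine how 24 h of LSD1 inhibition related to the H3K4me2 landscape of prostate cancer cells, the regions called under vehicle were set against those called after GSK2879552 for 24 h (GSK 24 h). The members were all records of these 2 peak lists on chromosomes 1 to 22. The vehicle list gave 97240 regions and the GSK 24 h list gave 123292, in all 220532 of the 344896 regions that the 3 lists of the series hold on these chromosomes. Regions were compared by position, length, summit (the base with the highest pileup) and distance to the next region, and a region was called list-only when no base of it was covered by the other list.

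H3K4me2, dimethylated lysine 4 of histone H3, marks active and poised enhancers and promoters. LSD1 (KDM1A) is a demethylase that removes methyl groups from mono- and dimethylated H3K4, and it acts both within repressor complexes and as a coactivator of the androgen receptor. GSK2879552 is an irreversible LSD1 inhibitor. An H3K4me2 region in ChIP-seq is a stretch of chromatin where immunoprecipitated fragments pile up above the background, so its length reflects both how far the modified nucleosomes extend and how much of the flank passes the caller's threshold.

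Both groups were LNCaP, an androgen-responsive prostate cancer cell line, kept in charcoal-stripped, hormone-depleted serum for 3 days. The vehicle group is labelled as without GSK. The GSK 24 h group is labelled as given DHT, the potent androgen, together with GSK2879552, whereas the treatment protocol names only the inhibitor. A difference between the lists therefore cannot be told apart as one of inhibitor or androgen. Each group had 2 replicate samples, which the labels give the same library index. The labels do not say whether they came from separate cultures, and whether they were separate libraries or runs of 1 library cannot be told from them. The authors made 1 list from both replicates of a group, so no spread between replicates stands behind any value, no test between the conditions was possible, and all differences below are between 2 lists. Intervals are 95% Wilson intervals, or order-statistic intervals for medians, and cover counting error only. No value in the lists reads LSD1 activity, so the treatment itself was not checked here. Positions are in hg19, and no region was assigned to a gene or printed as sequence, because no genome or annotation of that build was used here.

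The 2 lists were alike in depth and fragment length. The depth inferred from the peak values was 9.43 tags per kb of effective genome for vehicle and 8.98 for GSK 24 h, a ratio of 0.952. The shortest region, which is taken as the fragment length, was 221 bp and 219 bp. Summits had a median of 23 fragments under vehicle and 21 after GSK 24 h. The lists were not alike in the number of their strongest regions, which is given below.

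H3K4me2 was called at more places after GSK 24 h, while regions over 1500 bp and the strongest regions were fewer. The number of regions was 1.27 times that of vehicle, and the covered length went from 58.3 to 73.1 Mb, 1.25 times. The median length of the full lists differed little, at 476 bp (interquartile range 311 to 782) for vehicle and 495 bp (316 to 784) for GSK 24 h. With 97240 top regions by -log10 p in each list it differed more. The log2 ratio of the median length, GSK 24 h over vehicle, was then 0.32, against 0.06. At the long end of the full lists the order was the opposite. Regions over 1500 bp numbered 3415 under vehicle and 2743 after GSK 24 h, and regions over 2000 bp numbered 586 and 388. The 99th percentile of length was 1876 bp and 1717 bp. At the extreme the lists were alike, with 8 regions of at least 3000 bp in each. By the caller's -log10 q, which is not scaled between lists, the strongest regions were also fewer after GSK 24 h. Between 50 and 100 there were 3636 vehicle and 2008 GSK 24 h regions, and at 100 or more 5453 and 70. In each of the lower -log10 q classes used below, GSK 24 h had more regions.

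Regions also lay closer together after GSK 24 h. The median gap to the next region was 11727.5 bp under vehicle and 10230 bp after GSK 24 h. The next region began within 1 kb for 21.7% of vehicle regions (21.48 to 21.996) and 23.5% of GSK 24 h regions (23.2 to 23.7), and within 200 bp for 8.29% and 9.32%. Among such close neighbours the median distance from summit to summit was nearly the same, 800 bp for vehicle and 791 bp for GSK 24 h. The shorter gap did not hold at equal list length. With both lists limited to their 97240 top regions by -log10 p, the log2 ratio of the median gap was 0.13, against -0.20 for the full lists, so the gap was then longer in the GSK 24 h list.

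Of the vehicle regions, 13518 were list-only, a share of 13.9% (13.7 to 14.1). Of the GSK 24 h regions, 39156 were list-only, a share of 31.8% (31.5 to 32.0). These shares are the background against which every subset below is read. The difference between them depended on list length. With 97240 top regions in each list the shares were 20.4% and 21.2%. In bases, the lists had 46.2 Mb in common, which was 79.3% of the vehicle bases, 63.3% of the GSK 24 h bases and 54.3% of their union. Of the 26.9 Mb marked after GSK 24 h alone, 13.8 Mb lay in list-only regions and 13.1 Mb in regions that also overlapped the vehicle list. Nearly as many of the added bases thus belonged to regions that the vehicle list also had as to regions that it lacked. The 12.05 Mb marked under vehicle alone were made up of 4.65 Mb in list-only regions and 7.40 Mb in shared regions.

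The overlapping regions were mostly simple pairs. A 1 to 1 match held for 66932 regions, which was 68.8% of the vehicle list and 54.3% of the GSK 24 h list. Another 5140 vehicle regions each met several GSK 24 h regions, 10507 of them in all. In the other direction 4790 GSK 24 h regions each covered several vehicle regions, 9750 in all. A further 1900 vehicle and 1907 GSK 24 h regions belonged to 919 chains with several members on both sides.

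The list-only share fell steeply with region length. Among vehicle regions it went from 37.7% (36.8 to 38.7) in the shortest decile to 0.514% (0.390 to 0.677) in the longest. Among GSK 24 h regions it went from 74.9% (74.1 to 75.7) to 0.738% (0.602 to 0.905). The regions that met 2 or more of the other list had the opposite profile. Their share rose with length from 0.452% to 34.6% in the vehicle list and from 0.0406% to 21.4% in the GSK 24 h list. A longer region has more bases with which to overlap, and how much of both slopes this rule alone would give was not computed.

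**Figure D1:**
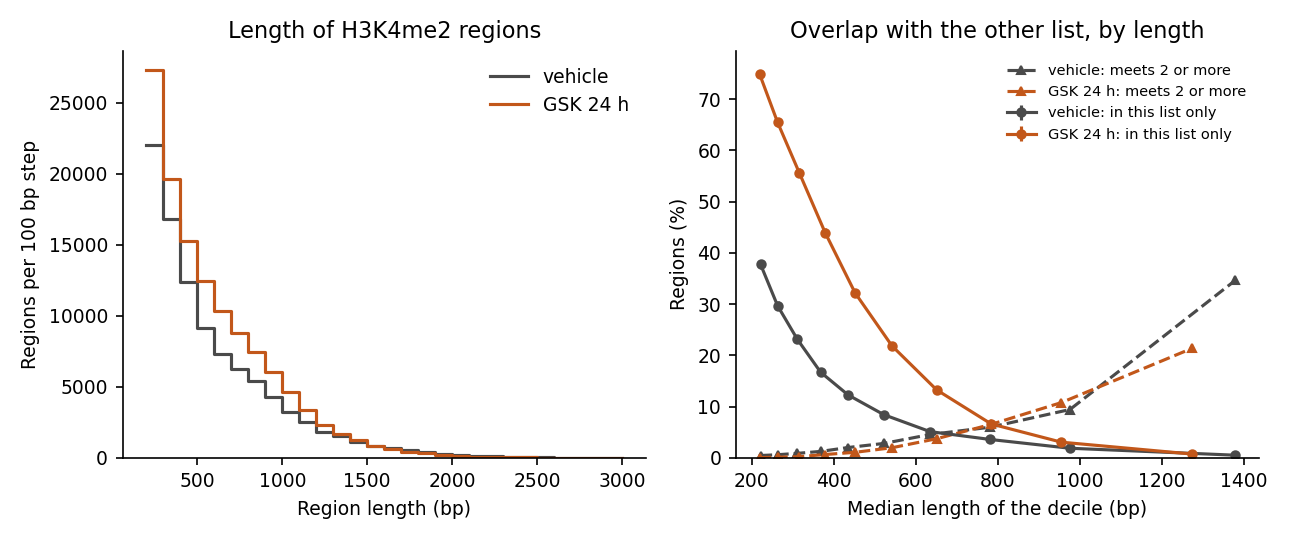
Left, number of regions per 100 bp step of length (bp) in the vehicle (grey) and GSK 24 h (orange) lists. Right, percent of regions that were list-only (circles, bars are 95% Wilson intervals) and percent that met 2 or more regions of the other list (triangles), by decile of the region's own length. The list-only share falls from 74.9% to 0.738% for GSK 24 h and from 37.7% to 0.514% for vehicle.

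The list-only share by strength differed in shape between the lists. Strength is here the -log10 q-value that the caller gave a region within its own list, which is not scaled between lists. In the GSK 24 h list the share fell steadily, from 68.6% below a -log10 q of 5 to 0.757% between 20 and 30 and 0.0672% between 30 and 50. No list-only region was found among the 2008 GSK 24 h regions between 50 and 100, which allows a share of up to 0.191%, or among the 70 regions of at least 100. In the vehicle list the share fell to 4.40% (3.97 to 4.87) between 20 and 30, then stood at 6.23% (5.62 to 6.91) between 30 and 50 and at 6.71% (5.94 to 7.57) between 50 and 100, before dropping to 0.899% at 100 or more. These 4 shares lay below the 13.9% of the whole vehicle list. The strongest classes were of unequal size in the 2 lists. The vehicle list had 3636 regions between 50 and 100, against 2008, and 5453 of at least 100, against 70. At a -log10 q of at least 30, 631 vehicle regions (4.35%) and 5 GSK 24 h regions (0.0525%) were list-only. These shares were 2.40% and 0.0221% with records within 1 kb merged, and 11.3% and 0.946% where 50% of a region had to be covered.

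Strong vehicle regions were also those most often met by several GSK 24 h regions. The share rose from 1.85% below a -log10 q of 5 to 24.2% between 50 and 100 and 30.2% at 100 or more. In the GSK 24 h list it was highest at 8.64%, between 10 and 20, and was 1.43% at 100 or more, which is 1 region of 70. Over all strengths the share was 6.26% for vehicle and 4.65% for GSK 24 h. After merging records within 1 kb it was 0.842% and 0.667%. This drop is largely built in, because the gap between 2 records met by 1 region lies inside that region. Vehicle regions that met exactly 2 had a median length of 1188 bp and a median gap of 154 bp. For such GSK 24 h regions these were 1030 bp and 130 bp. No conclusion on the multiple overlaps is drawn from the merging. At a -log10 q of at least 10 in both lists the shares were 5.80% and 1.81%. With 97240 top regions in each list the order was the opposite, at 4.92% for vehicle and 5.77% for GSK 24 h. Which list had the larger share over all strengths thus depended on list length. Length moves with strength, as the median went from 269 bp to 1226 bp over these classes in the vehicle list and from 276 bp to 1138.5 bp in the GSK 24 h list.

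**Figure D2:**
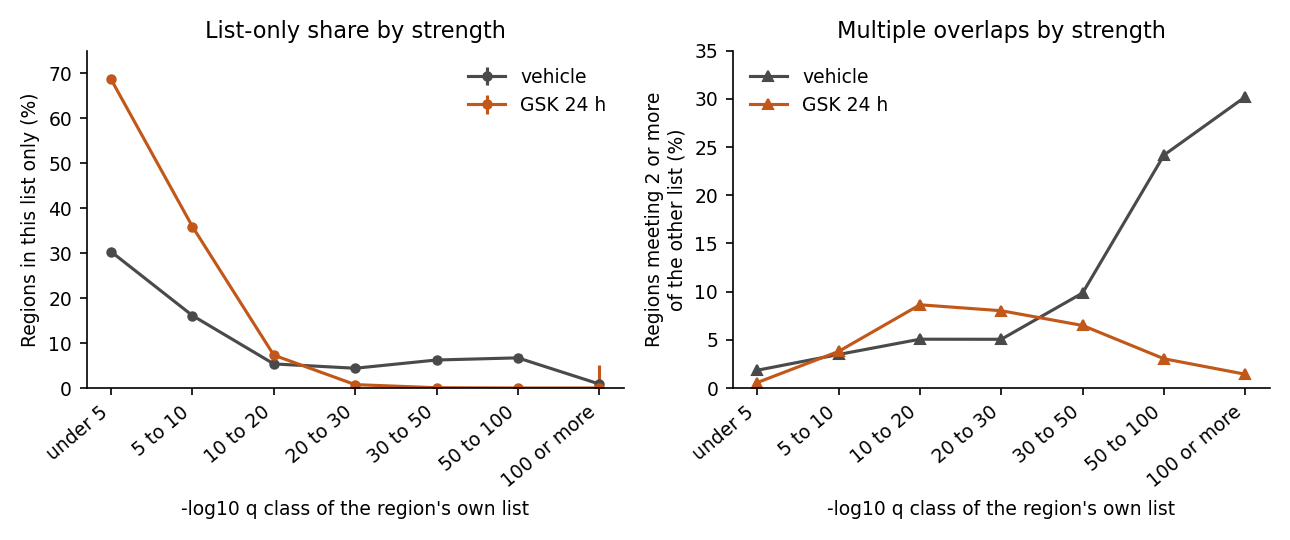
Left, percent of regions that were list-only (bars are 95% Wilson intervals) by class of -log10 q within the region's own list. Right, percent of regions that met 2 or more regions of the other list. Grey is vehicle and orange is GSK 24 h. The vehicle curve on the right climbs to 30.2%, while the GSK 24 h curve stays at or below 8.64%.

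Regions that met exactly 2 of the other list were examined for what lay between them. There were 5827 such vehicle regions, with a median length of 1188 bp. The 2 GSK 24 h regions in each were separated by a median gap of 154 bp, or 15.2% of the vehicle region's length, and their summits were 747 bp apart. The vehicle summit lay in that gap in 1145 of them, 19.6% (18.6 to 20.7). The 5536 GSK 24 h regions that met exactly 2 vehicle regions were shorter, at 1030 bp, and the gap was 130 bp or 13.6% of the length. There the GSK 24 h summit fell in the gap in 423, 7.64% (6.97 to 8.37), and lay a median of 73 bp from the nearer vehicle summit, against 143 bp in the reverse case. A vehicle region met by 2 GSK 24 h regions thus more often had its highest point where the GSK 24 h list had no call.

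At most 4 regions of the other list were met by one region. This held for 8 vehicle and 7 GSK 24 h regions. The longest such vehicle region, chr14:103987357-103989792, was 2436 bp long with a summit of 309 fragments, and 4 GSK 24 h regions of 354 to 534 bp covered 68.4% of it. The next, chr18:23669259-23671527, was 88.5% covered by 4 GSK 24 h regions. At chr17:17584300-17586422, where the vehicle summit had 201 fragments, only 42.1% was covered. On the GSK 24 h side the longest, chr4:146857207-146860290, was 3084 bp long with a summit of 64 fragments, and 4 vehicle regions of 221 to 1007 bp covered 77.7% of it. The next were chr7:129589158-129592160, 77.4% covered, and chr11:43701804-43704005, 79.3% covered.

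Matched regions were slightly longer after GSK 24 h. The median length was 524 bp under vehicle and 629 bp after GSK 24 h, and the median log2 ratio within a pair was 0.14 (0.138 to 0.146). The interquartile range ran from -0.10 to 0.48, so many pairs went the other way. At a -log10 q of at least 10 in both lists the median was 0.08. The GSK 24 h member was the longer in 65.2% (64.8 to 65.6) and the shorter in 34.5% of pairs. Lengths were within 20% of each other in 46.2%. The GSK 24 h region was over 2 times as long in 8.02% and under 1/2 as long in 1.67%. The 2 edges moved outward alike, by a median of 27 bp on the left and 28 bp on the right. Both edges lay further out in 35.4% of pairs and further in for 12.9%, and in 50.8% one edge moved out and the other in.

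Ranked by the mean length of the pair, the gain in length was largest in pairs of intermediate length. The median log2 ratio was 0.08 in the shortest decile, 0.31 in the 4th and 0.06 in the longest. No region was shorter than 221 bp under vehicle or 219 bp after GSK 24 h, so pairs in the shortest decile had little room to differ. How much of the rise to the 4th decile this alone would give was not computed. The choice of ranking mattered. Ranked by vehicle length the ratio went from 0.71 in the shortest decile to -0.01 in the longest, and ranked by GSK 24 h length from -0.25 to 0.14. A pair placed in the shortest decile by one list was thus mostly longer in the other. In the longest decile by mean length the fold enrichment over background was 7.69 for vehicle and 6.82 for GSK 24 h, although the regions were not shorter. Vehicle had the higher fold from the 8th decile on, at 6.67 against 6.46 there, and in the shortest, at 3.98 against 3.92, and the lower fold in the deciles between.

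Summits moved without a preferred side. The median signed move was 1 bp and the median absolute move was 76 bp (interquartile range 31 to 166). Summits were within 50 bp of each other in 37.6% of pairs (37.2 to 37.9), within 100 bp in 59.4% and within 500 bp in 96.4%. The move in bp grew with length. The median was 59 bp in the shortest decile and 176 bp in the longest, and summits over 300 bp apart made up 1.09% and 37.9% of these deciles. A longer pair leaves more room for its summits to lie apart, and how much of this slope that alone would give was not computed. A summit lay inside a region of the other list for 92.3% of the vehicle regions that overlapped it and for 91.1% of such GSK 24 h regions.

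**Figure D3:**
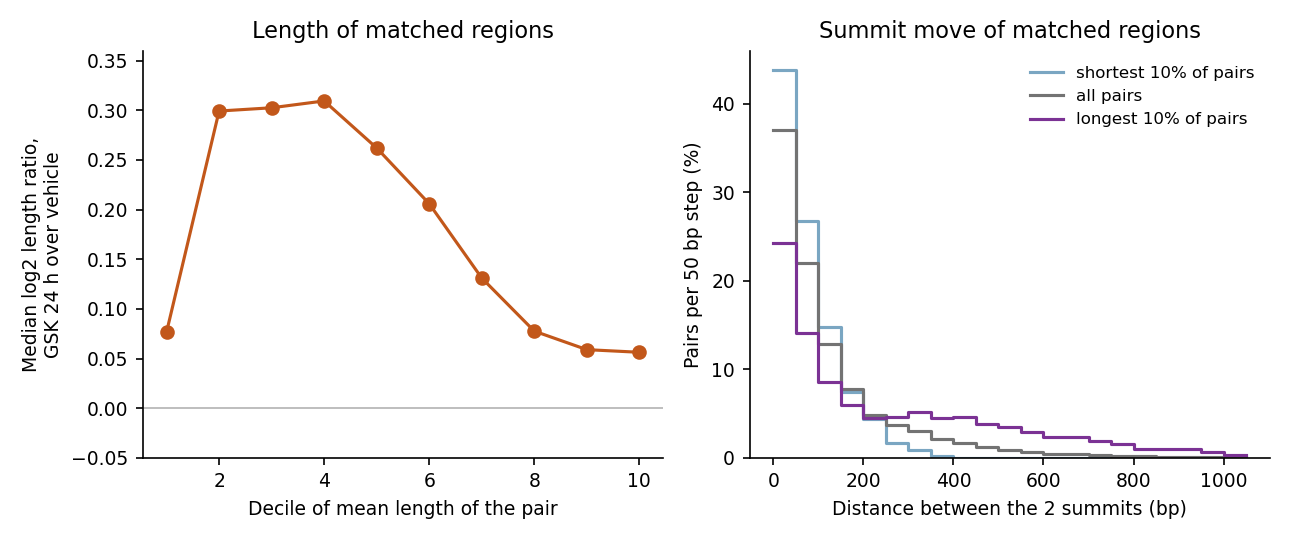
Left, median log2 ratio of region length, GSK 24 h over vehicle, by decile of the mean length of the 66932 matched pairs, with 0 marked as a line. Right, percent of pairs per 50 bp step of the distance between their summits, for all pairs and for the shortest and longest 10%. The ratio peaks at 0.31 in the 4th decile, and the longest pairs have a broad tail beyond 300 bp. Pairs in the shortest decile lie near the shortest region length, which limits both their ratio and their summit move.

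Large changes in matched regions are shown by the pairs with the extreme length ratios, among the 33637 whose members were both at least 476 bp long. The pair with the largest gain lay at chr2:100918499-100918983 under vehicle and chr2:100918052-100919714 after GSK 24 h, 485 against 1663 bp. Its summits had 19 and 21 fragments. The next pairs, at chr3:47206664-47207169 and chr7:103087688-103088178, went from 506 to 1704 bp and from 491 to 1570 bp, with 50 against 54 and 38 against 61 fragments. The pairs with the largest loss looked different, since the vehicle summit was far taller. At chr9:100746130-100747809 the vehicle region was 1680 bp long with 331 fragments, and the GSK 24 h region was 482 bp with 40. At chr19:17355767-17357418 the values were 1652 bp with 229 fragments and 537 bp with 86. At chr19:18390832-18392392 they were 1561 bp with 180 fragments and 517 bp with 59. The height went with the length in all 3 losses and, by less, in all 3 gains, whose summits had at most 61 fragments.

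The largest summit moves occurred in very long regions whose edges hardly differed. At chr15:41219824-41223087, 3264 bp long, the summit moved by 2315 bp while the GSK 24 h region was 3252 bp long, with 156 and 128 fragments. The region at chr1:152081514-152084956, 3443 bp long and the longest of the vehicle list, had its summit 1828 bp further to the left after GSK 24 h, where it was 3465 bp long and again the longest of its list. Summits had 162 and 146 fragments.

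List-only regions were short and weak in both lists. Their median length was 290 bp for vehicle and 305 bp for GSK 24 h, against 527 and 640 bp for the shared regions of the same list, and their median fold was 4.22 and 4.05 against 5.19 and 5.31. Their summits had a median of 15 and 13 fragments. They differed in where they lay. The nearest region of the other list was a median of 2984.5 bp away for vehicle-only and 8031.5 bp away for GSK 24 h-only regions. It was within 1 kb for 36.5% (35.7 to 37.3) and 25.1% (24.6 to 25.5), and within 10 kb for 74.996% and 55.2%. The list further from its counterpart was the one set against fewer regions, so the distances are not on equal terms.

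GSK 24 h-only regions were more common among isolated regions. Where the nearest region of the same list was less than 500 bp away, 27.3% of GSK 24 h regions were list-only, and where it was 50 kb or more away, 46.4% (44.7 to 48.2) were, against 31.8% over all. The vehicle list had no such slope, with 10.6% below 500 bp, 16.6% between 2 and 10 kb and 14.4% at 50 kb or more. GSK 24 h-only regions also followed one another. Runs of 5 or more consecutive ones, with no shared GSK 24 h region between them, numbered 519 and held 3051 regions, 7.79% of these. The vehicle list had 4 such runs with 22 regions. A list with a higher list-only share also has longer runs, and the level that this alone would give was not computed. The longest GSK 24 h run had 14 regions over 309.7 kb at chr14:29708780-30018499, and the longest vehicle run had 7 over 13.5 kb at chr7:1263855-1277358.

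Individual list-only regions could be long. The longest vehicle-only region, chr20:60717736-60719504, was 1769 bp long, had a fold of 8.79 and a summit of 243 fragments, and began or ended 67 bp from a GSK 24 h region. The next, chr20:21376681-21378269, had 36 fragments and lay 15120 bp from the nearest GSK 24 h region. The region at chr17:42296153-42297733 had 136 fragments and lay 516 bp away. On the GSK 24 h side the longest list-only region was chr9:114243291-114245197, 1907 bp with 79 fragments and 144 bp from a vehicle region. It was followed by chr20:57226568-57228297, with 39 fragments and 417 bp away, and chr1:1165206-1166914, with 74 fragments and 142 bp away. Of these 6 regions, 5 thus lay within 1 kb of the other list.

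List-only regions of high fold were mostly those of the vehicle list. A fold of at least 8 was reached by 556 vehicle-only regions (4.11% of these) and 109 GSK 24 h-only regions (0.278%), and a fold of at least 12 by 148 and 1. As a share of all regions of that fold, list-only regions made up 3.79% in the vehicle list and 1.07% in the GSK 24 h list at a fold of at least 8, and 4.04% and 0.136% at a fold of at least 12, all below the background. The vehicle-only regions with a fold of at least 12 had a median length of 568 bp, against 965.5 bp for shared regions of that fold, and 65.5% of them had no other vehicle region within 10 kb, against 56.2%. At a fold of at least 8 the order was the opposite, with 46.4% of the vehicle-only and 48.8% of the shared regions. The highest folds, which were picked out after the values were seen, were 20.8 at chr2:162197351-162197978 (154 fragments, 29429 bp from the nearest GSK 24 h region), 20.6 at chr7:63088083-63088579 (94 fragments, 65550 bp away) and 20.4 at chr15:28647983-28648471 (81 fragments, 22351 bp away). On the GSK 24 h side, chosen in the same way, they were 12.1 at chr18:67816922-67817381, 10.8 at chr4:71121716-71122249 and 10.5 at chr6:138798932-138799503, with 35, 34 and 42 fragments.

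The gain in regions was uneven over the chromosomes. The ratio of region number, GSK 24 h over vehicle, was above 1 on each of the 22 chromosomes and went from 1.05 on chromosome 19 to 1.41 on chromosome 13. These are also the chromosomes with the highest and the lowest density of vehicle regions, 65.03 and 24.0 per Mb. The share of GSK 24 h regions that were list-only was 16.1% (15.0 to 17.2) on chromosome 19 and 38.0% (36.4 to 39.7) on chromosome 13. The median length of GSK 24 h regions also differed between these chromosomes, at 629 bp and 467 bp. The list-only share falls with length, and the part of length in this contrast was not tested. The vehicle-only share hardly varied, from 13.1% on chromosome 8 to 16.0% on chromosome 18. As a description over 22 chromosomes, which share the same 2 lists, Spearman's rho with vehicle density was -0.92 for the GSK 24 h-only share, -0.93 for the ratio of region number and -0.04 for the vehicle-only share. Density and ratio both contain the vehicle count, so they are not independent measures. The GSK 24 h-only share is tied to density as well, since a GSK 24 h region is shared only where a vehicle region overlaps it.

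Counted per Mb, the lists differed in another way. Vehicle-only regions followed density, from 3.27 per Mb on chromosome 13 to 9.03 on chromosome 19 (rho 0.94). GSK 24 h-only regions were spread more evenly, from 10.99 per Mb on chromosome 19 to 17.0 on chromosome 15 (rho 0.33). The length ratio of matched pairs was likewise lowest on chromosome 19, with a median log2 ratio of 0.06, and highest on chromosome 6, at 0.18. With 97240 top regions in each list, an alternative added after these values were seen, the GSK 24 h-only share was 10.4% on chromosome 19 and 26.3% on chromosome 13, against vehicle-only shares of 18.4% and 20.2%. The contrast between these chromosomes in the GSK 24 h-only share was therefore present at equal list length. Within chromosome 19 the order of the lists changed, as the full lists had 13.9% for vehicle and 16.1% for GSK 24 h.

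**Figure D4:**
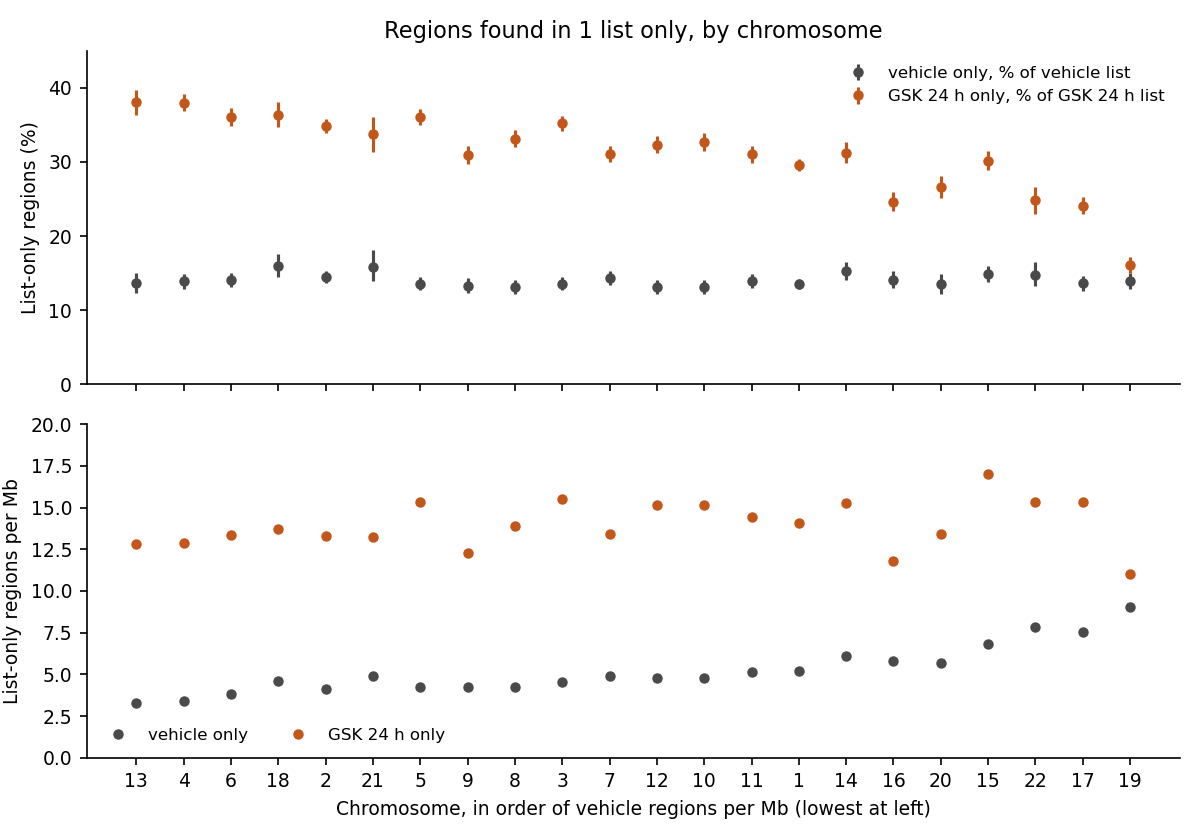
Top, percent of each list that was list-only (bars are 95% Wilson intervals), and bottom, list-only regions per Mb, for chromosomes 1 to 22 in order of vehicle regions per Mb. Grey is vehicle and orange is GSK 24 h. The GSK 24 h share falls from 38.0% on chromosome 13 at the left to 16.1% on chromosome 19 at the right, while the vehicle share stays between 13.1% and 16.0%.

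Density was also examined in 2734 bins of 1 Mb, pooled over the 22 chromosomes, so that values within a single chromosome were not compared. GSK 24 h had more regions than vehicle in 2591 bins (94.8%), fewer in 99 (3.62%) and as many in 44. Bins were classed by the mean of both lists. This mean contains the vehicle count, to which the GSK 24 h-only share is tied, so class and share are not independent. The GSK 24 h-only share went from 57.7% in bins with under 10 regions to 18.5% in bins with 80 or more. The vehicle-only share was 19.8% in bins with under 10 regions and between 13.4% and 15.0% in the other classes. The number of GSK 24 h-only regions per bin rose from 5.21 to 18.003 in bins with 60 to 80 regions and was 17.6 in the densest. Vehicle-only regions kept rising, from 0.951 to 8.87 and 12.5 per bin. Bins with more vehicle than GSK 24 h regions were 24 of the 148 densest (16.2%), against 0.875% of bins with 30 to 40 regions.

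**Figure D5:**
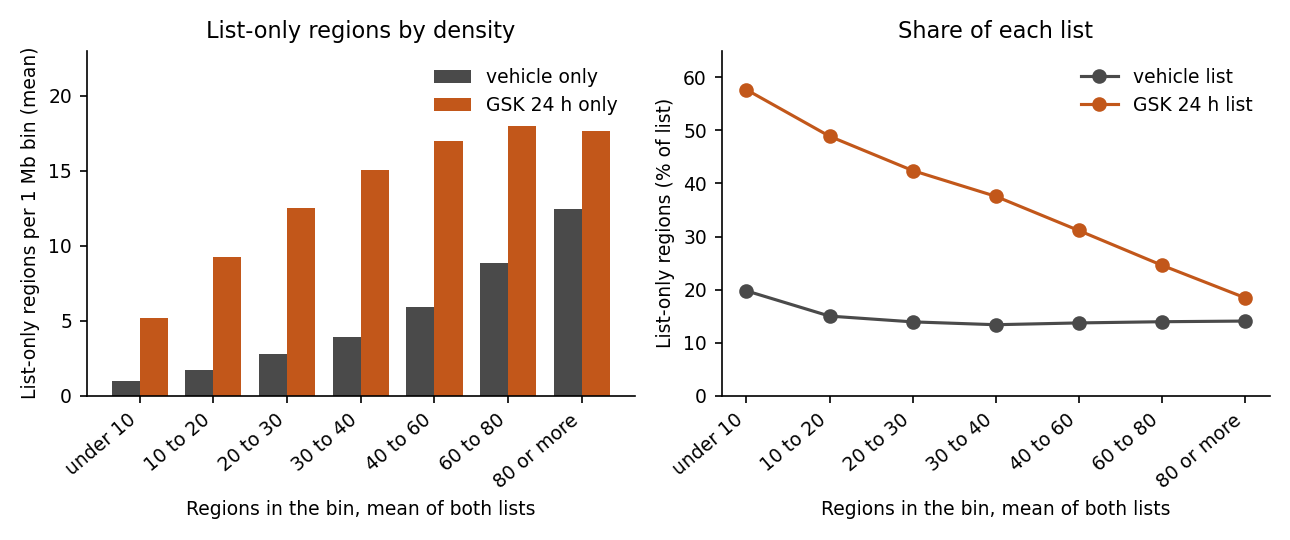
Left, mean number of list-only regions per 1 Mb bin, and right, list-only regions as a percent of the list, by the mean number of regions that both lists have in the bin. Grey is vehicle and orange is GSK 24 h. GSK 24 h-only regions level off at 17.6 to 18.003 per bin in the 2 densest classes, while vehicle-only regions go on rising to 12.5.

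The largest excess of GSK 24 h-only regions was in chr5:69000001-70000000, with 42 such regions against 11 vehicle-only, and 92 against 58 regions in all. It was followed by chr5:90000001-91000000, with 37 against 6. The largest excess of vehicle-only regions was in chr19:1-1000000, with 21 vehicle-only against 7 GSK 24 h-only regions and 89 against 78 in all. It was followed by chr9:136000001-137000000, with 20 against 8.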

How the data were processed

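H3K4me2 ChIP-seq was made from LNCaP cells with a Millipore antibody and the ThruPLEX DNA-seq 48D kit. The submitters' processing notes name BWA 0.7.2-r351, SAMtools 0.1.18, MACS2 2.0.10.20131216 and hg19, but their settings are not given in the sources used here. The authors deposited 1 list per group from both replicates, with positions and summits, a fold enrichment (ratio over background), a -log10 p-value and -log10 q-value, and a display score. The score was not used further. The deposited fold and -log10 values are not normalised between lists.

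Records on chromosomes 1 to 22 were used as they stand, since none touched. Overlap needed at least 1 bp. Summit fragments and depth were recovered from fold and p under the caller's Poisson model, which gave whole numbers (tolerance 0.001 in -log10 p) for 99.998% of vehicle and 100% of GSK 24 h regions with a -log10 p of at most 250. The 622 vehicle regions past that limit were not tried, and no GSK 24 h region lay past it. Some of these steps were tested on simulated data, but not all of them. Python 3.11.15, numpy 2.4.6 and pandas 2.3.3 were used, with matplotlib 3.10.9 for the plots.

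Members, lists and most splits were chosen with earlier results of these data known. Named regions are the 3 longest list-only regions of each list, the 3 that met the most of the other list, the 3 matched pairs with the largest and smallest length ratio and the 2 with the largest summit move among pairs of at least 476 bp, and the 2 bins of 1 Mb with the largest excess each way. Alternatives were a -log10 q of at least 10, equal numbers of top regions, merging within 1 kb and a 50% overlap. Genes and sequence were not analysed here.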

Additional observations from a re-analysis of the deposited data

Results flagged for a closer look

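Records outside the comparison were more numerous in the GSK lists than in the vehicle list. Chromosome X held 3407 GSK 24 h records against 2405 vehicle records, or 2.65% (2.56 to 2.74) and 2.38% (2.29 to 2.47) of all records of the list. Haplotype, unplaced and other sequences counted here held 1363 against 1168 records, and here the share was lower for GSK 24 h, at 1.06% (1.01 to 1.12) against 1.15% (1.09 to 1.22). These sets do not add up to the whole of either list, and the remaining records were not described. The list made after 4 h of GSK2879552, which was not compared here, had 124364 records on chromosomes 1 to 22, against 97240 for vehicle. These differences were not tested, because there is 1 list per group.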

How the results depend on the processing

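No paired analysis was possible because both replicates of a group went into 1 list, and no replicate could be left out for the same reason. Counting intervals over so many regions are narrow, and of 52 alternative values 46 moved beyond them, 5 did not and 1 changed sign. A change of sign was looked for in log2 ratios only, so a changed order between shares of the lists is not counted there. A median summit of 21 to 23 fragments limits the weak regions most: one absent from a list may lie just under its threshold. Chromosome and -log10 q of 30 values were added after seeing the data.

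With a -log10 q of at least 10 in both lists (44348 vehicle and 51558 GSK 24 h regions), the log2 ratios, GSK 24 h over vehicle, were 0.22 for region number, 0.21 for covered length, 0.033 for median length, 0.081 for matched length and -0.15 for the median gap. List-only shares were 18.2% (vehicle) and 26.4% (GSK 24 h). Summits within 50 bp made up 40.2%, regions that met 2 or more 5.80% and 1.81%, and GSK 24 h-only regions within 1 kb of a vehicle region 18.4%. On chromosome 19 the list-only shares were 15.3% (vehicle) and 14.3% (GSK 24 h), and on chromosome 13 they were 20.4% and 32.9%.

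With 97240 top regions in each list, the log2 ratios were 0.16 for covered length, 0.32 for median length, 0.15 for matched length and, with the sign changed, 0.13 for the median gap. List-only shares were 20.4% and 21.2%. Summits within 50 bp made up 38.0% and GSK 24 h-only regions within 1 kb 27.0%. Regions that met 2 or more made up 4.92% (vehicle) and 5.77% (GSK 24 h), the opposite order to the full lists. On chromosome 19 the list-only shares were 18.4% and 10.4%, and on chromosome 13 those shares were 20.2% and 26.3%.

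With records within 1 kb merged, the log2 ratios were 0.31 for region number and 0.15 for matched length. List-only shares were 12.5% and 29.5%. Summits within 50 bp made up 32.4%, regions that met 2 or more 0.842% and 0.667%, and GSK 24 h-only regions within 1 kb 5.72%. The GSK 24 h-only share was 14.0% on chromosome 19 and 35.9% on chromosome 13. Past a -log10 q of 30, list-only shares were 2.40% and 0.0221%.

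With 50% of a region covered, list-only shares were 18.9% and 40.1%, with 11.3% and 0.946% past a -log10 q of 30. With 50% of both regions covered, the matched length ratio was 0.11 and summits within 50 bp made up 40.3%. The causes of these differences were not tested.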
